A study of Rattus norvegicus with 6 samples.

Results

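The unfolded protein response (UPR) is the set of signals by which a cell adjusts the folding capacity of its endoplasmic reticulum (ER). The 10 genes described here are the mRNAs for its 4 membrane sensors *Ern1* (IRE1), *Eif2ak3* (PERK), *Atf6* and *Atf6b*, the transcription factor *Xbp1*, the proteases *Mbtps1* (S1P) and *Mbtps2* (S2P) that cut ATF6, and 3 genes that the response is known to induce, *Dnajb9* (ERdj4), *Dnajc3* (p58IPK) and *Edem2*. They were picked by symbol from the 17315 rows of the expression tables. All 10 were found, and all 10 were among the 10331 genes that were tested, those with a mean of at least 1 TPM. TPM is a gene's share of the transcripts in a sample, corrected for transcript length and scaled to a sum of 1000000. Levels were compared between neural stem cells (NSCs) transfected with a control small interfering RNA (siControl) and with one against *Derl1* (siDerl1), which encodes Derlin-1, a membrane protein of ER-associated degradation.

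The cells were rat hippocampal NSCs of the line labelled HCN, which was cloned from adult rats, and no genetic modification is named for either group. They were transfected with a Stealth RNAi duplex, kept for 2 days in proliferation medium with basic fibroblast growth factor (bFGF) and then for 2 days with 50 ng/mL BMP4 and 10 ng/mL bFGF, a medium that brings such cells into quiescence. There were 3 siControl and 3 siDerl1 samples, numbered 1 to 3 in each group. A single line and a single duplex against *Derl1* were used, so an effect of *Derl1* and any other effect of that duplex cannot be told apart. No label says that the samples of a group were separate cultures, and the p-values therefore measure the spread between these samples, which may be technical.

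IRE1 is a kinase and endoribonuclease. When unfolded proteins build up it oligomerises and removes a short intron from *Xbp1* mRNA, and the spliced mRNA encodes the active transcription factor. PERK phosphorylates eIF2alpha, which lowers general translation and favours that of ATF4. ATF6 and its paralog ATF6b travel to the Golgi apparatus, where S1P and S2P release their cytosolic domain. These steps act on protein or on splicing, so the level of a sensor's mRNA is no measure of its activity. The row for *Xbp1* sums 2 RefSeq transcripts, and the spliced share was not read here.

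Many genes of the UPR carry the ER stress response element (ERSE), CCAAT and CCACG separated by 9 bases, which is bound by NF-Y together with ATF6 or XBP1. The RefSeq promoter table of the GRCr8 assembly, which holds 250 bases before and 50 bases after each start, had a window for 8 of the 10 genes, *Ern1* and *Atf6* being the others. On either strand the ERSE was found in 22 of 33469 windows (0.0657%). *Xbp1* and *Dnajc3* were the members that held it, and their 250 upstream bases are shown with the ERSE in capitals because these genes are followed through the results.

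Xbp1, GRCr8 chr14:84604373-84604622, plus strand: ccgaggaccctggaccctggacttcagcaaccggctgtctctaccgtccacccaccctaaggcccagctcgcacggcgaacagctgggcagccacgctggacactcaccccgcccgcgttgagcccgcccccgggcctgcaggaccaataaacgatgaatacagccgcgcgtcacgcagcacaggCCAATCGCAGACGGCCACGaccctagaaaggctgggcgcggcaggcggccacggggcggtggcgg
Dnajc3, GRCr8 chr15:102432417-102432666, plus strand: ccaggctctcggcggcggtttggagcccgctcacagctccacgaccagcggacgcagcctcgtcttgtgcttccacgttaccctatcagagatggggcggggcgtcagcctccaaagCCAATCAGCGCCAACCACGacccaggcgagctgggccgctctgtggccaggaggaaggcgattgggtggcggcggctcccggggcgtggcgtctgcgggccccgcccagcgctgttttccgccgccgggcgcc

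In *Xbp1* the ERSE lies 65 to 47 bases before the start, and in *Dnajc3* 133 to 115 bases before it. The ERSE-II, ATTGG and CCACG separated by 1 base, was in 0 of the 8 windows and in 0.0508% of all. The ATF6 and XBP1 core TGACGTGG was in none of the 8 and in 0.595% of all windows, and the cAMP response element TGACGTCA was in none of the 8 and in 1.83% of all. CCACG, the second part of the ERSE, taken alone was in the windows of *Dnajb9*, *Dnajc3*, *Edem2*, *Mbtps1* and *Xbp1* and in 31.6% of all windows. These matches are a description of letters and do not show binding.

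The targeted gene was read first. *Derl1* was at 122, 132 and 128 TPM in the siControl samples 1, 2 and 3 and at 44.9, 70.8 and 74.0 TPM in the siDerl1 samples 1, 2 and 3. The groups did not overlap, and the mean went from 127 ± 5.19 (SD, n = 3) to 63.2 ± 16.0 TPM (SD, n = 3), a ratio of 0.498. The log2 fold change was −1.03 (SE 0.18), with an adjusted p of 0.497 in limma over all genes and of 0.00884 in limma with the sample number as a block, but of 0.229 when the block was fitted without an intensity trend and of 0.104 when it was fitted to every gene. An exact permutation test of 3 against 3 samples cannot go below 0.1, and its two-sided p for *Derl1* was 0.1.

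The tables hold TPM and no counts, which leaves the depth of the libraries and the counting error of each value unknown. In a principal component analysis, 55.7% of the variance lay on a component on which the samples numbered 1 of both groups stood away from the other 4, and 16.2% on a component that separated the groups. All 10 NSC markers were measured, with a sum of 4041 to 6027 TPM in siControl and 4468 to 5998 TPM in siDerl1 NSCs. Of these, 4 were lower and 6 higher by sign, and *Nes* (125 to 104 TPM) was lower at an unadjusted limma p under 0.05 without overlap of the groups. *Hes5* (13.2 to 23.5 TPM) had the most positive log2 fold change of the list, 0.94, and passed that limit only with the block. Markers of microglia summed to 5.01 to 9.36 and 5.80 to 7.96 TPM in the same groups, with *Cx3cr1* at 0 in every sample, and endothelial markers to 1.51 to 2.65 and 1.69 to 2.89 TPM, with *Cdh5* and *Cldn5* at 0. The oligodendrocyte list was high in both groups (1857 to 2170 and 1816 to 2346 TPM), with *Mog* at 0. Of the 7 astrocyte markers 4 were tested, and all 4 were higher by sign in siDerl1 NSCs. *Gfap* (34.5 to 53.0 TPM) and *Aldoc* (661 to 788 TPM) were higher at an unadjusted limma p under 0.05. With the block 3 were higher at that limit, and 1 passed after adjustment. The list sum was 1119.8 to 1378 against 1218 to 1633 TPM, with *Gjb6* at 0. Of the 8 neuronal markers 5 were tested. Without the block *Dcx* (9.78 to 7.04 TPM) and *Syt1* (49.8 to 39.5 TPM) were lower at an unadjusted limma p under 0.05. *Tubb3* (68.1 to 78.6 TPM) was the 1 with a positive log2 fold change and passed only with the block. The list sum was 164 to 185 against 151 to 182 TPM. The part of these markers in the members' differences was not tested. Fibroblast markers summed to 39.1 to 71.1 and 31.8 to 46.0 TPM, with *Dcn* and *Lum* at 0. Of the 2 tested, 1 was lower at an unadjusted limma p under 0.05 with the block. The groups did not overlap for 1, with siDerl1 higher. In bulk RNA, fewer cells of a type and less RNA per cell cannot be told apart.

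*Ern1*, which encodes the IRE1 sensor, had the largest log2 difference of the members over all 6 samples. It was at 7.11, 6.80 and 7.71 TPM in the siControl samples 1, 2 and 3 and at 4.69, 5.33 and 5.72 TPM in the siDerl1 samples 1, 2 and 3. Every siDerl1 sample was below every siControl sample, with a gap of 1.08 TPM. The mean was 27.2% lower in siDerl1 NSCs, 5.25 ± 0.520 against 7.21 ± 0.463 TPM (SD, n = 3 each). On the log2 scale the fold change was −0.40 (SE 0.14, 95% confidence interval −0.73 to −0.06). The unadjusted p in limma was 0.0271, but the adjusted p was 0.704 over all genes, and the exact permutation p was 0.1, the smallest possible. *Ern1* was also the member with the lowest level, and 13.6% of the genes tested had a lower mean TPM. Leaving out 1 sample at a time gave log2 fold changes of −0.45 to −0.33. The unadjusted limma p was above 0.05 without siControl 1 (0.0517), siControl 3 (0.0888), siDerl1 1 (0.0733) or siDerl1 2 (0.0596). Without siControl 1, *Dnajc3* had a larger difference than *Ern1* (−0.46 against −0.40). Without number 1 in both groups *Dnajc3* and *Dnajb9* did (both −0.36, against −0.34).

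*Xbp1*, whose mRNA is the substrate of IRE1, was at 89.9, 118 and 112 TPM in the siControl samples 1, 2 and 3 and at 77.1, 103 and 89.8 TPM in the siDerl1 samples 1, 2 and 3. The groups overlapped, since siControl 1 lay below siDerl1 2. Within each number the siDerl1 sample was the lower one, by 0.22, 0.19 and 0.31 on the log2(TPM + 1) scale. The mean was 90.0 ± 13.0 against 106 ± 14.6 TPM (SD, n = 3 each), 15.4% lower. This gave a log2 fold change of −0.24 (SE 0.14, interval −0.56 to 0.08), with a limma adjusted p of 0.772, and it was −0.13 without siDerl1 1. With the number as a block, the standard error was 0.059 and the limma p was 0.0028 before and 0.119 after adjustment. The ratio of *Xbp1* to *Ern1* was 14.8 ± 2.34 in siControl and 17.2 ± 1.94 in siDerl1 NSCs (SD, n = 3 each; exact permutation p = 0.3).

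**Figure D1:**
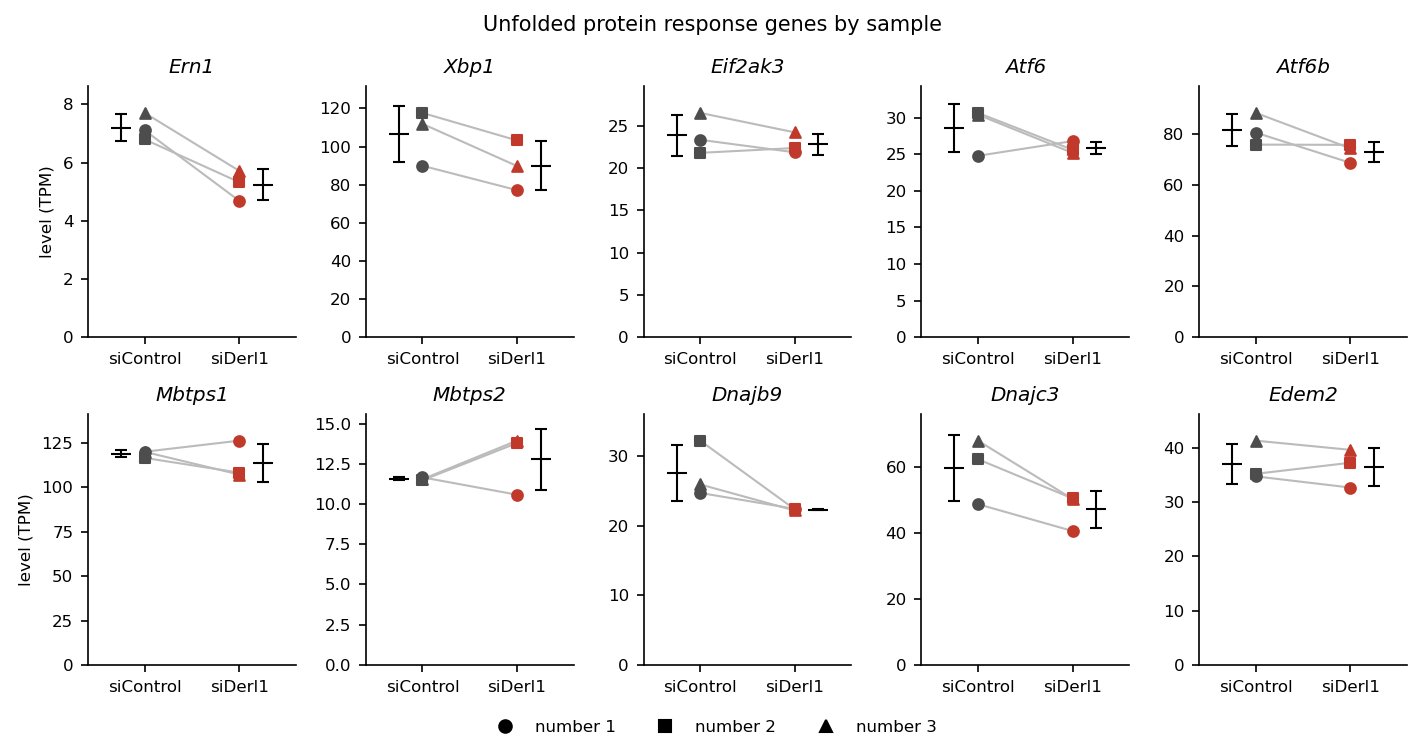
Level of each of the 10 genes in TPM (vertical axes, each from 0) in siControl (grey) and siDerl1 (red) samples, with grey lines joining samples of the same number and black bars for the mean and SD of 3 samples. *Ern1*, *Dnajb9* and, by 0.10 TPM, *Atf6b* have every siDerl1 sample below every siControl sample, whereas *Xbp1* and *Dnajc3* are lower along all 3 lines but overlap between groups.

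Of the 10331 genes, 4.03% were lower in siDerl1 NSCs at an unadjusted limma p under 0.05, and 2 of the 10 members were, *Ern1* and *Dnajb9*. With the number as a block the background was 8.88%, and 4 members passed, *Xbp1* and *Dnajc3* being added. In the higher direction, where 0 members passed, the background was 2.67% without the block and 6.84% with it. After adjustment in limma, 0 of the 10 members passed in either fit. The background of adjusted calls was 0% of genes without the block, where the smallest adjusted p of any gene was 0.332 and 692 genes had an unadjusted p under 0.05, and 0.552% (57 genes) with it. The members' adjusted p ranged from 0.704 to 0.982 in limma without the block and from 0.0899 to 0.924 with it. *Ern1* was also the only member past the limits of the study, a fold change above 1.5 or below 0.8 with an unadjusted p under 0.05, which were applied here to the ratio of mean TPM and the limma p in place of the edgeR values of the study, and 1.49% of genes were past them in the lower direction. With the p of the block, *Dnajc3* passed too, against 2.57% of genes.

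PERK showed no detectable difference. *Eif2ak3* was at 23.3, 21.8 and 26.5 TPM in the siControl samples 1, 2 and 3 and at 21.9, 22.4 and 24.2 TPM in the siDerl1 samples 1, 2 and 3. The groups overlapped, and the pairs of the same number did not share a direction (−0.09, 0.04 and −0.13 on the log2 scale). The log2 fold change was −0.06 (SE 0.11), and its 95% interval of −0.31 to 0.19 leaves room for a difference of either sign (limma adjusted p = 0.950). The ratio of *Eif2ak3* to *Ern1* was 3.31 ± 0.119 in siControl and 4.36 ± 0.258 in siDerl1 NSCs (SD, n = 3 each). Every siDerl1 ratio was above every siControl ratio (exact permutation p = 0.1, the smallest possible). This ratio and the other 4 given were chosen after the levels were seen.

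The ATF6 paralogs were lower on average, by less than *Ern1*. *Atf6* was at 24.8, 30.6 and 30.4 TPM in the siControl samples 1, 2 and 3 and at 26.8, 25.6 and 25.2 TPM in the siDerl1 samples 1, 2 and 3. Here siControl 1 was the lowest of all 6 and siDerl1 1 the highest of its group, so that the pair numbered 1 went against the other pairs. Its log2 fold change was −0.13 (SE 0.11, interval −0.39 to 0.12, limma adjusted p = 0.858). Without siControl 1 it was −0.23 with an unadjusted limma p of 0.0453. Without siControl 2 or siControl 3 it was −0.083 and −0.089 (unadjusted limma p 0.528 and 0.506). *Atf6b*, the more abundant of the paralogs, was at 80.7, 76.0 and 88.5 TPM in the siControl samples 1, 2 and 3 and at 68.8, 75.9 and 74.5 TPM in the siDerl1 samples 1, 2 and 3. The groups were separated by only 0.10 TPM, and they overlapped when the samples were rescaled by median-of-ratios size factors. For *Atf6b* the log2 fold change was −0.16 (SE 0.08, interval −0.35 to 0.03, limma adjusted p = 0.764). The ratio of *Atf6b* to *Atf6* was 2.88 ± 0.389 in siControl and 2.83 ± 0.227 in siDerl1 NSCs (SD, n = 3 each; exact permutation p = 1).

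The proteases that cut ATF6 and the sterol regulators SREBP differed little. *Mbtps1*, encoding S1P, was at 120.05, 117 and 120.0 TPM in the siControl samples 1, 2 and 3 and at 126, 108 and 107 TPM in the siDerl1 samples 1, 2 and 3. Its siControl samples were close to one another, and siDerl1 1 lay above all of them while siDerl1 2 and 3 lay below. Its log2 fold change was −0.06 (SE 0.08, interval −0.25 to 0.12, limma adjusted p = 0.927). *Mbtps2*, encoding S2P, was at 11.7, 11.5 and 11.5 TPM in the siControl samples 1, 2 and 3 and at 10.6, 13.8 and 13.9 TPM in the siDerl1 samples 1, 2 and 3. It went the other way from *Mbtps1* in each number, and it was the 1 member with a positive log2 fold change. This was 0.12 (SE 0.14, interval −0.20 to 0.44, limma adjusted p = 0.909). It was 0.24 without siDerl1 1, 0.067 without siDerl1 2 and 0.059 without siDerl1 3. The ratio of *Mbtps1* to *Mbtps2* was 10.3 ± 0.122 in siControl and 9.16 ± 2.41 in siDerl1 NSCs (SD, n = 3 each; exact permutation p = 0.4).

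Of the genes that the UPR induces, both J-domain co-chaperones were lower in siDerl1 NSCs in every pair. *Dnajb9*, whose product ERdj4 is a J-domain partner of the ER chaperone BiP, was at 24.7, 32.2 and 25.9 TPM in the siControl samples 1, 2 and 3 and at 22.4, 22.4 and 22.2 TPM in the siDerl1 samples 1, 2 and 3. All siDerl1 samples lay below all siControl samples with a gap of 2.28 TPM, and the spread was in siControl, where sample 2 stood highest (27.6 ± 4.03 against 22.3 ± 0.123 TPM, SD, n = 3 each). The log2 fold change was −0.29 (SE 0.12, interval −0.56 to −0.01), with a limma p of 0.0424 before and 0.733 after adjustment. Without siControl 2 it was −0.17, and with 1 sample left out the limma p was 0.0236 without siControl 1 and 0.0554 to 0.140 in the other 5 fits. *Dnajc3*, whose product p58IPK is another BiP co-chaperone, was at 48.6, 62.2 and 67.9 TPM in the siControl samples 1, 2 and 3 and at 40.5, 50.4 and 50.2 TPM in the siDerl1 samples 1, 2 and 3. The groups overlapped, as siControl 1 was below siDerl1 2 and 3, but each pair was lower by 0.26, 0.30 and 0.43 on the log2 scale. The mean was 47.0 ± 5.64 against 59.6 ± 9.88 TPM (SD, n = 3 each), a ratio of 0.790. In limma the log2 fold change was −0.33 (SE 0.14, interval −0.67 to 0.01), with an adjusted p of 0.740. With the number as a block, the standard error was 0.072 and the limma p was 0.0014 before and 0.0899 after adjustment. The ratio of *Dnajc3* to *Dnajb9* was 2.17 ± 0.386 in siControl and 2.11 ± 0.261 in siDerl1 NSCs (SD, n = 3 each; exact permutation p = 0.8).

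*Edem2*, which takes part in the mannose trimming that marks misfolded glycoproteins for degradation, did not share this. It was at 34.7, 35.2 and 41.3 TPM in the siControl samples 1, 2 and 3 and at 32.7, 37.3 and 39.6 TPM in the siDerl1 samples 1, 2 and 3. Samples numbered 3 were the highest in both groups and samples numbered 1 the lowest. Its log2 fold change was −0.02 (SE 0.11, interval −0.28 to 0.23, limma adjusted p = 0.982).

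**Figure D2:**
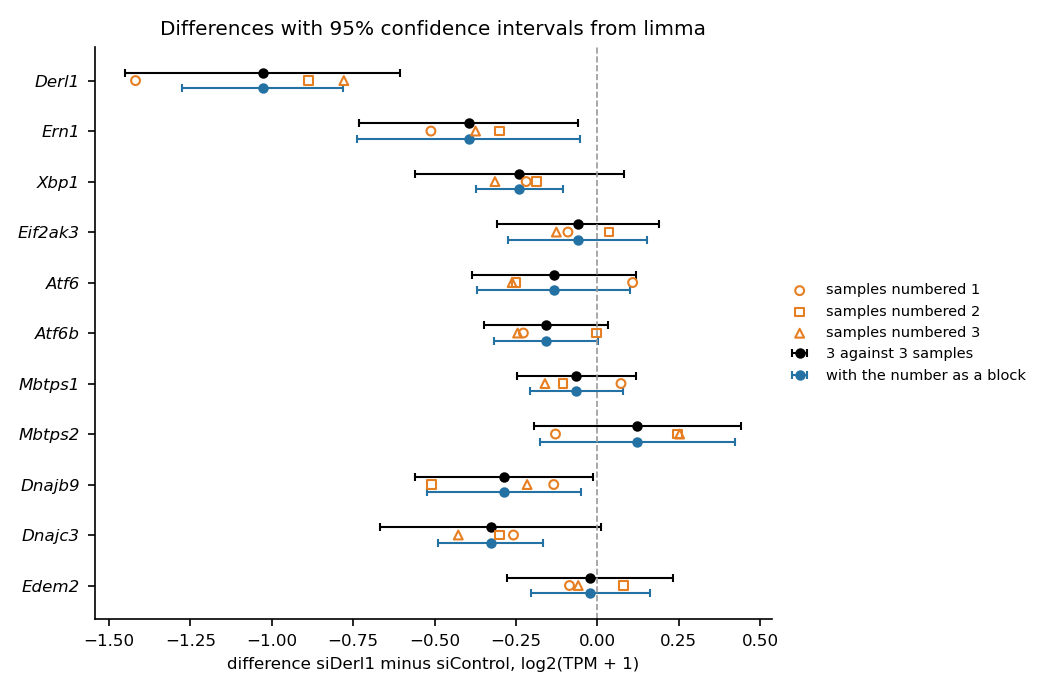
Difference siDerl1 minus siControl on the log2(TPM + 1) scale (horizontal axis) for *Derl1* and the 10 genes, with 95% confidence intervals from limma without (black) and with (blue) the sample number as a block, and open symbols for the 3 pairs of the same number. *Xbp1* and *Dnajc3* have pairs close together and an interval that excludes 0 only with the block, whereas *Ern1* and *Dnajb9* exclude 0 in both, all before adjustment over genes.

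Side by side, 9 of the 10 genes had a negative log2 fold change, as did 54.8% of all genes tested. The median log2 fold change was −0.15 over the members, or −0.095 without siControl 3, and −0.02 over all genes. In 5 members, *Ern1*, *Xbp1*, *Atf6b*, *Dnajb9* and *Dnajc3*, the siDerl1 sample was the lower one in all 3 pairs, against 22.1% of all genes, and 0 members were higher in all 3. The groups did not overlap for 3 members, with siDerl1 lower, against 8.52% of all genes. By number, 8, 7 and 9 members were lower in pairs 1, 2 and 3, with medians of −0.13, −0.15 and −0.23, and 47.9%, 55.8% and 57.3% of all genes were. The summed level of the 10 was 466, 511 and 532 TPM in siControl NSCs 1, 2 and 3 and 432, 464 and 453 TPM in the siDerl1 samples 1, 2 and 3. Sums of TPM follow the abundant members *Mbtps1*, *Xbp1* and *Atf6b*.

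The members differed in how their variation was shared between group, number and rest. The number and the rest have more degrees of freedom than the group, so a larger share does not mean a larger effect. The same shares over all genes were not computed. The group held 84.6% of the sum of squares of log2(TPM + 1) for *Ern1* and 61.2% for *Dnajb9*, the most of any members. For *Xbp1* the number held 64.6%, the group 33.7% and the rest 1.72%, and for *Dnajc3* the shares were 50.7%, 47.0% and 2.27%. The number held most of the sum for *Edem2* (88.7%) and *Eif2ak3* (76.8%). *Atf6* left 50.8% to the rest, neither group nor number. Sample 1 was the lowest of its group for 5 members in siControl and for 7 in siDerl1 NSCs, which was not counted over all genes.

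**Figure D3:**
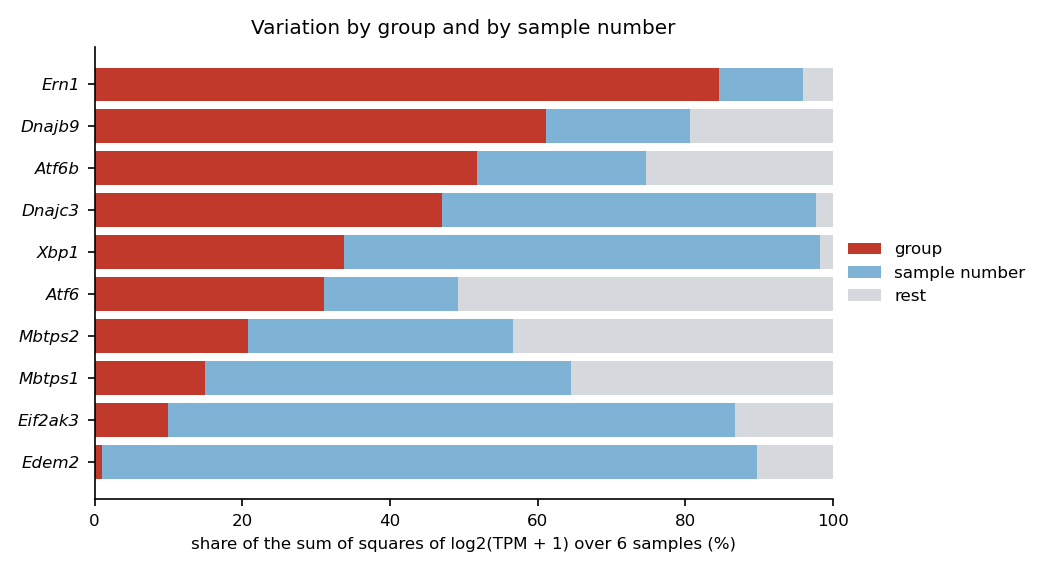
Share of the sum of squares of log2(TPM + 1) over the 6 samples (horizontal axis, percent) held by group (red), by sample number (blue) and by the rest (grey), with genes ordered by the share of the group. The group share runs from 84.6% for *Ern1* to 0.941% for *Edem2*, and *Xbp1* and *Dnajc3* leave the least to the rest.

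TPM is corrected for transcript length, so levels can be set beside one another. Over all 6 samples the order of mean TPM was *Mbtps1* (116), *Xbp1* (98.3), *Atf6b* (77.4), *Dnajc3* (53.3), *Edem2* (36.8), *Atf6* (27.2), *Dnajb9* (25.0), *Eif2ak3* (23.3), *Mbtps2* (12.2) and *Ern1* (6.23). The sample ranges of neighbours overlapped for *Mbtps1* and *Xbp1*, *Xbp1* and *Atf6b*, *Dnajc3* and *Edem2*, *Atf6* and *Dnajb9*, and *Dnajb9* and *Eif2ak3*. They were separate at the other 4 steps. IRE1 was thus the least abundant sensor mRNA in every sample and *Atf6b* the most abundant. The sum of the 4 sensors was 141 ± 10.1 TPM in siControl and 127 ± 4.21 TPM in siDerl1 NSCs (SD, n = 3 each).

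The genes whose pattern over the 6 samples was most like that of *Xbp1*, among 8274 genes with a mean of at least 10 TPM, were *Kif26a*, *Wash1* and *Wwtr1*. The root mean square distance between centred log2(TPM + 1) profiles was 0.050, 0.052 and 0.053, against 0.207 for the spread of *Xbp1* itself. *Kif26a* was at 21.2, 30.8 and 27.8 TPM in siControl and 18.9, 27.3 and 22.6 TPM in siDerl1 NSCs 1, 2 and 3, and so had its lowest value at number 1 and its highest at number 2 in each group, as *Xbp1* did.

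The rest of the pathway was read from lists of genes around each branch, described by counts. Some genes, among them *Dnajb11* and *Eif2ak2*, stand in more than a single list, so the counts and medians of the lists are not independent. Among 15 tested partners of IRE1, 11 had a negative log2 fold change and 1 passed an unadjusted limma p under 0.05, with a list median of −0.07, or 0.016 without siDerl1 1. That gene was *Tmbim6*, which encodes Bax inhibitor 1, a binding partner of IRE1. It was at 791, 865 and 847 TPM in the siControl samples 1, 2 and 3 and at 604, 706 and 679 TPM in the siDerl1 samples 1, 2 and 3. Its groups did not overlap, and its log2 fold change was −0.33 with a limma adjusted p of 0.669, or 0.018 with the block, which was 0.242 without the trend and 0.104 when fitted to every gene. *Ern2*, the paralog of *Ern1*, was at 0 in every sample.

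Of 14 tested genes of the PERK branch, 11 were lower and 3 higher by the sign of the log2 fold change (median −0.06, or −0.033 without siControl 2). Only *Ddit3*, which encodes the transcription factor CHOP, passed an unadjusted limma p under 0.05, and it was higher. It was at 139.9, 138 and 140.2 TPM in the siControl samples 1, 2 and 3 and at 154, 155 and 163 TPM in the siDerl1 samples 1, 2 and 3. The groups did not overlap, and the log2 fold change was 0.17 (limma adjusted p = 0.704, or 0.167 with the block). With the block 0 genes of this branch were lower and 2 higher at an unadjusted p under 0.05, *Ddit3* and *Trib3*. *Trib3* (10.2 to 14.8 TPM) had the most positive log2 fold change of the branch, 0.54 (limma adjusted p = 0.764, or 0.144 with the block). The other 3 kinases of eIF2alpha had a median of −0.01, or −0.073 without siControl 1 and 0.069 without number 3 in both groups. Without the block 0 passed. With it 1 was higher. This was *Eif2ak2* (PKR), which interferon induces. It was at 37.6, 79.6 and 80.0 TPM in siControl and 35.6, 108 and 102 TPM in siDerl1 NSCs 1, 2 and 3, and its log2 fold change was 0.24 (limma adjusted p = 0.953, or 0.294 with the block).

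Of 15 tested ER chaperones and folding enzymes known as targets of ATF6 and XBP1, 11 were lower and 4 higher by sign, with a median of −0.08, or −0.15 without siControl 1 and 0.019 without siDerl1 1. At an unadjusted limma p under 0.05, 1 was lower, and with the block 5 were lower and 0 higher. *Hyou1*, an ER chaperone of the HSP70 family, was at 134, 159.8 and 150.2 TPM in the siControl samples 1, 2 and 3 and at 100.2, 119.6 and 131 TPM in the siDerl1 samples 1, 2 and 3. Its groups did not overlap, and its log2 fold change was −0.34 (limma adjusted p = 0.704, or 0.053 with the block). *Hspa5*, which encodes BiP and was added after its values were seen, was at 311, 474 and 470.3 TPM in siControl and 272, 425 and 440.0 TPM in the siDerl1 samples 1, 2 and 3. It overlapped between groups and was lowest at number 1 in each, as *Xbp1* was. The list also holds *Cabp1*, by a symbol it shares with an ER folding enzyme, although the rat gene of this symbol encodes a calcium-binding protein. It had the most positive log2 fold change of the list (0.35).

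Among 32 tested genes of translocation and transport that XBP1 is known to act on, 22 were lower and 10 higher by sign (median −0.06, but −0.0049 without siDerl1 1). At an unadjusted limma p under 0.05 there was 1 in each direction. With the block 7 were lower and 4 higher, where 8.88% and 6.84% of all genes were. *Lman1*, a cargo receptor from the ER to the Golgi, was at 73.3, 94.6 and 90.9 TPM in the siControl samples 1, 2 and 3 and at 47.9, 68.3 and 69.2 TPM in the siDerl1 samples 1, 2 and 3. Its groups did not overlap, and the log2 fold change was −0.49 (limma adjusted p = 0.704, or 0.026 with the block, which was 0.229 without the trend and 0.116 when fitted to every gene). *Ssr4*, a subunit of the translocon-associated complex, went the other way, from 93.4 ± 5.59 to 104 ± 3.12 TPM (SD, n = 3 each; log2 fold change 0.16, limma adjusted p = 0.740).

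The remaining lists held few calls. Of 10 tested genes of mannose trimming around *Edem2*, 9 were lower by sign and 0 passed an unadjusted limma p under 0.05 (median −0.05, but −0.13 without siControl 1 and −0.0096 without siDerl1 1). With the block 0 passed as well. Of 9 tested J-domain proteins of the ER or its membrane, 6 were lower by sign and 0 passed (median −0.04). With the block 1 was lower, *Dnajb11* (163 to 149 TPM), and the median was −0.16 without siControl 1, 0.041 without siControl 2 and 0.0082 without siControl 3. Of 8 tested substrates and partners of S1P and S2P, 6 were lower by sign and *Insig1*, which retains the SREBP complex in the ER, passed in the higher direction, at 234 ± 3.91 against 257 ± 7.65 TPM (SD, n = 3 each; log2 fold change 0.13, limma adjusted p = 0.713). With the block *Insig2* was lower as well (40.3 to 34.2 TPM), beside *Insig1*. Of 4 tested transcripts reported elsewhere as cleaved by IRE1, 2 were lower and 2 higher by sign, and 0 passed with or without the block (median 0.01, but −0.15 without siDerl1 1). Genes that carry the ERSE in the promoter table were read after the values were seen. Of 15 tested, 10 were lower by sign, 0 passed an unadjusted limma p under 0.05 without the block, and with it 3 were lower (*Dnajc3*, *Xbp1* and *Hspa5*) and 2 higher (*Birc5* and *Ero1b*). *Dnajc3* and *Xbp1* had the most negative log2 fold changes of the 15.

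**Figure D4:**
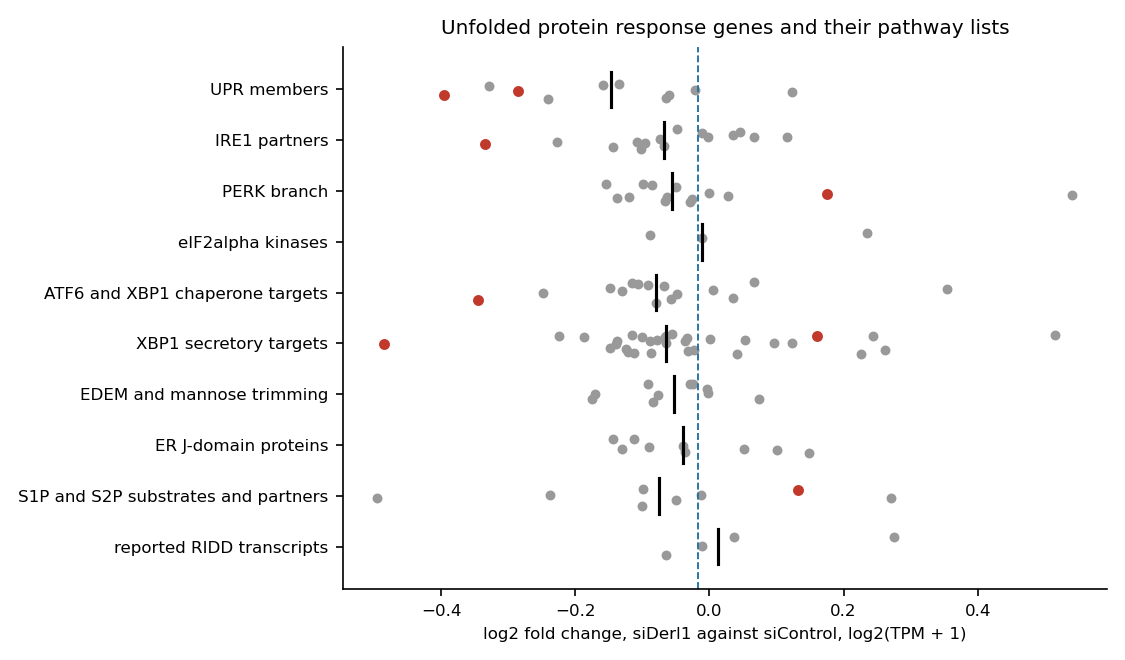
Log2 fold change of siDerl1 against siControl on the log2(TPM + 1) scale (horizontal axis) for each tested gene of the 10 members and of 9 lists around them, with a black bar for the list median, a dashed line for the median of all genes (−0.02) and red for an unadjusted limma p under 0.05. The members have the most negative median with all samples (−0.15), and the red points lie on both sides of 0. Without number 3 in both groups the members' median was −0.093, against −0.113 for the ATF6 and XBP1 chaperone targets.

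A list of interferon-induced genes moved with the number. All 17 tested genes had a positive log2 fold change (median 0.42). At an unadjusted limma p under 0.05, 0 passed without the block and 11 with it, against 6.84% of all genes in the higher direction. After adjustment 5 passed with the block. Of all genes 57 did, but 0 with the block and no trend and 2 with the block and no filter. The median of the list was −0.22 without siControl 1, −0.05 without siDerl1 2 and 0.00036 without siDerl1 3. It was 1.70 without siDerl1 1, 0.95 without siControl 2 and 0.83 without siControl 3. Without number 1, 2 or 3 in both groups it stayed positive, at 0.69, 0.38 and 0.29. The summed level of the list ran from 221 to 1227 TPM in siControl and from 217 to 2160 TPM in siDerl1 NSCs. The lowest sums were in the samples numbered 1. *Mx1*, an antiviral GTPase, was at 0.39, 53.5 and 65.4 TPM in siControl and 3.14, 139 and 133 TPM in the siDerl1 samples 1, 2 and 3. Its log2 fold change was 1.32 (limma adjusted p = 0.934, or 0.0048 with the block). The part of these genes in the members' differences was not tested. Without both samples numbered 1, *Xbp1*, *Atf6*, *Dnajb9* and *Dnajc3* were lower at an unadjusted limma p under 0.05. Their log2 fold changes were −0.25, −0.26, −0.36 and −0.36. *Ern1* did not pass there (−0.34), and *Edem2* was at 0.010. In that fit, chosen after the values were seen, 1145 of 10331 genes passed in either direction. The share in the lower direction was not counted. After adjustment 33 genes and 0 members passed.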

How the data were processed

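RNA-seq of 6 samples was used. As the study's methods and the submitters' processing notes say, the authors made strand-specific poly(A) libraries, sequenced them on a HiSeq X, used Trimmomatic (0.39) for trimming, STAR (2.7.3a) for mapping to rn6, RSEM (1.3.2) for expression and edgeR (3.28.1) for their own tests. The deposited values are TPM with 2 decimals. They keep no depth and are shares of a fixed sum, so no count test was run.

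Differences were tested with limma (3.58.1, R 4.3.3) on log2(TPM + 1), with an intensity trend and Benjamini-Hochberg adjustment over 10331 genes (mean TPM 1 or more), after a check on simulated data. Fold changes on this scale are understated for low genes. Single values were compared with exact two-sided permutation tests. Deviations from the group means correlated between samples of the same number at 0.70, 0.35 and 0.51. Of different numbers, siControl 2 with siDerl1 3 (0.34) and siControl 3 with siDerl1 2 (0.25) also correlated, so the pairing of numbers 2 and 3 is less clear than that of number 1. The number was fitted as a block beside the main fit.

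The members and all lists were chosen with earlier results of these data known. Named genes were the members, *Derl1*, up to 2 genes of each pathway list with the smallest p under 0.05, *Mx1*, *Eif2ak2* and the 3 genes nearest to *Xbp1*. The cell type markers and *Hspa5*, *Dnajb11*, *Insig2*, *Cabp1*, *Trib3*, *Birc5* and *Ero1b* were named after their values were seen. Alternatives were other pseudocounts, filters, scaling, no trend, the block, and samples left out. No protein sequences were used here.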

Additional observations from a re-analysis of the deposited data

How the results depend on the processing

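In every alternative run, 0 members passed an adjusted limma p under 0.05. With the replicate block, members at an unadjusted p under 0.05 went from 2 to 4, also without the filter or the trend, genes at that limit from 692 to 1624 (1318 without the trend, 1691 without the filter), and genes passing after adjustment from 0 to 57, but to 2 with the block and no filter and to 0 with the block and no trend. Leaving out 1 sample gave 0 to 4 members (4 without siControl 1, 1 without siControl 2, siDerl1 2 or siDerl1 3, 0 without siControl 3 or siDerl1 1), 424 to 805 genes at an unadjusted p under 0.05 and 0 after adjustment. Leaving out both samples of a number was chosen after seeing the data. Without number 1, 2 or 3 it gave 4, 0 and 0 members and 1145, 207 and 390 genes at an unadjusted p under 0.05, with 33 genes after adjustment without number 1. *Derl1* passed the adjusted threshold with the block (−1.03) and without number 1 (−0.83), but not with the block and no trend (adjusted limma p 0.229) or no filter (0.104), and ran from −1.16 to −0.80 when any single sample was left out. Likewise *Eif2ak3* ran from −0.12 to 0.015, positive without siControl 3, and *Edem2* from −0.081 to 0.056, positive without siControl 3 (0.056), siDerl1 1 (0.054) and number 1 (0.010). The other 8 members kept their direction in all alternatives, but 1 sample moved some by over 1.5 times. Without siDerl1 1, *Xbp1* went to −0.13, *Mbtps1* to −0.14 and *Mbtps2* to 0.24. Without siControl 1, 2 or 3, *Atf6* went to −0.23, −0.08 and −0.09. *Atf6b* went to −0.10 without siControl 3, and *Dnajb9* to −0.17 without siControl 2. Without siDerl1 2 or 3, *Mbtps1* went to −0.03 and −0.02 and *Mbtps2* to 0.07 and 0.06. The members' median went to −0.095 without siControl 3 and to −0.093 without number 3. The interferon list's median turned to −0.22 without siControl 1 and −0.05 without siDerl1 2. It rose to 1.70 without siDerl1 1 and 0.95 without siControl 2. Without number 1, 2 or 3 it stayed positive (0.69, 0.38 and 0.29). List medians also turned for IRE1 partners (0.016) and chaperones (0.019, against −0.15 without siControl 1) without siDerl1 1, for J-domain proteins without siControl 2 (0.041) or 3 (0.0082), against −0.16 without siControl 1 and −0.14 without number 1, for eIF2alpha kinases without siControl 2 (0.0028), siDerl1 3 (0.00036), number 2 (0.015) or 3 (0.069), and for transcripts cleaved by IRE1 without siControl 3 (−0.081), siDerl1 1 (−0.15) or number 1 (−0.056). Of the medians that kept their sign, that of the PERK branch went to −0.033 without siControl 2, that of secretory targets from −0.105 without siDerl1 3 to −0.0049 without siDerl1 1, that of mannose trimming from −0.128 without siControl 1 to −0.0096 without siDerl1 1, and that of S1P and S2P partners from −0.118 without siControl 1 to −0.018 without siControl 2. That of the eIF2alpha kinases, which turned in the fits above, also went to −0.073 without siControl 1 and −0.054 without siControl 3. The cause was not tested. Groups did not overlap for 3 members, or 2 after median-of-ratios scaling. The values hold no depth, so counting error could not be separated from the spread between samples.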
